A study of Homo sapiens with 8 samples.

Results

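The 10 genes HSPA5, HSP90B1, DNAJB9, SDF2L1, HERPUD1, XBP1, PDIA4, CALR, CRELD2 and EDEM1 encode chaperones, folding enzymes and regulators of the endoplasmic reticulum (ER) and are used as readouts of ER folding stress. They were chosen as a pathway, with earlier results of these data known, and found by symbol, each at 1 of 58688 Ensembl gene IDs, in RNA-seq read counts of 8 samples of LM2 cells. The LM2 line was derived from the human triple-negative breast cancer line MDA-MB-231 by its metastasis to lung and, per the methods, carries luciferase, and all samples were grown in DMEM with 10% FBS. In the first experiment, LM2 cells without an shRNA received vehicle (DMSO) or 1 µmol/L Ponatinib, an inhibitor of ABL and other tyrosine kinases, for 6 h, with 2 samples each. In the second, LM2 cells transduced with lentivirus for 48 h in 8 µg/mL Polybrene and selected with puromycin expressed a scrambled shRNA (shCtrl), ABL1 shRNA, ABL2 shRNA or both shRNAs, with 1 sample each. Each ABL gene was targeted by 1 hairpin, and the 3 knockdowns share the 1 shCtrl sample. The question was whether ABL kinase inhibition or ABL knockdown came with higher expression of the ER folding genes.

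When unfolded proteins build up in the ER lumen, the chaperone BiP (HSPA5) is drawn away from the sensors IRE1 (ERN1), PERK (EIF2AK3) and ATF6. Active IRE1 splices XBP1 mRNA and cleaved ATF6 moves to the nucleus, and both raise transcription of ER chaperones and of ER-associated degradation (ERAD) genes. PERK phosphorylates the translation factor eIF2α, which favours translation of ATF4, and ATF4 is also reached by other eIF2α kinases that sense amino acid shortage, viral RNA or heme shortage. ATF6 together with NF-Y binds the ER stress response element of chaperone promoters.

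The promoters are shown because they carry these elements for most of the 10 genes. In RefSeq promoters of GRCh38.p14, which span 250 bases before to 50 bases after each gene's start, the letters of the ER stress response element (CCAAT, any 9 bases, CCACG) or of its variant II (ATTGG, any 1 base, CCACG) were found on either strand in 7 of the 10 promoters. Among all 35116 promoters, the first was in 27 (0.0769%) and the second in 19 (0.0541%). In the lines below, capitals mark the fixed letters of these elements, in both orientations, and in HERPUD1 also those of a C/EBP-ATF response element. Each line reads 5′ to 3′ on the strand of the gene, and the positions are HSPA5 chr9:125241383-125241493 (minus strand), HSP90B1 chr12:103930214-103930236 (plus), CALR chr19:12938380-12938409 (plus), CRELD2 chr22:49918504-49918633 (plus), XBP1 chr22:28800598-28800682 (minus), HERPUD1 chr16:56931952-56932141 (plus) and SDF2L1 chr22:21642102-21642152 (plus).
HSPA5: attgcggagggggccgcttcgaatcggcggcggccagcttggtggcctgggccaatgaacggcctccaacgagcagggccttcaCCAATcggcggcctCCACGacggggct
HSP90B1: gaCCAATcggaaggagCCACGct
CALR: cacgCGTGGtcgaccatcATTGGtcggtgg
CRELD2: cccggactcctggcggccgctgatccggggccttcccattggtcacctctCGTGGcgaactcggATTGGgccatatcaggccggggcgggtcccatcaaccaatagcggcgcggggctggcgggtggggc
XBP1: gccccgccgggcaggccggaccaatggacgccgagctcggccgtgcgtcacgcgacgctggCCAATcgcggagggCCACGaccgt
HERPUD1: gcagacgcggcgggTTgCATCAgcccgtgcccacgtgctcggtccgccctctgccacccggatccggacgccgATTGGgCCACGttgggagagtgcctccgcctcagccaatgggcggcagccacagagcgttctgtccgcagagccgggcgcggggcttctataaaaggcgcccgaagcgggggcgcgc
SDF2L1: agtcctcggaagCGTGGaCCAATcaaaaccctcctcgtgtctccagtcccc

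The element starts 66 bases before the start site in HSPA5, 194 and 89 bases before it in HSP90B1, 52 in XBP1, 225 in CALR and 80 in CRELD2. Variant II starts 117 bases before the start in HERPUD1 and 188 in SDF2L1. HERPUD1 was the only member with the C/EBP-ATF response element (TGATGNAA, the composite site bound by ATF4 with C/EBP proteins), 176 bases before the start, and 1270 of all promoters (3.62%) hold these letters. The ATF6 and XBP1 site TGACGTGG, in 256 of all promoters (0.729%), was found in 0 of the 10, and DNAJB9, PDIA4 and EDEM1 matched none of the searched letters, which says only that these letters are not in that window. Among related genes, HYOU1 holds variant II at 2 positions, CANX and ERO1B hold the first element, and ATF3, CHAC1 and ASNS of the ATF4 arm and SRPRB of the translocation list hold the C/EBP-ATF element. A match of letters is a description and not a site shown to be bound.

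**Figure D1:**
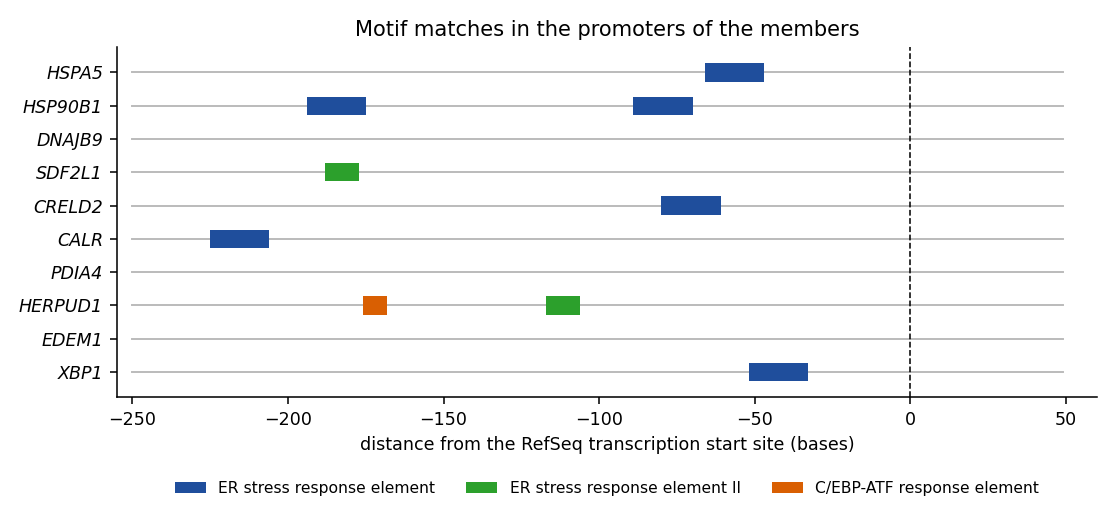
Matches of 3 searched motifs in the RefSeq promoters of the 10 genes, by distance from the start site in bases (x axis), with 1 grey line per promoter and a dashed line at the start. HSP90B1 carries the ER stress response element at 2 positions, HERPUD1 carries variant II and the C/EBP-ATF element, and the lines of DNAJB9, PDIA4 and EDEM1 are empty.

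Reads counted on genes summed to between 7568934 (Ponatinib replicate 2) and 13010896 (ABL1 shRNA) per sample, so that 3 counts, taken as the detection floor, equal 0.231 to 0.396 CPM (reads scaled to a common library size). The mesenchymal genes VIM (1900 to 3180 CPM), CD44 (480 to 741) and AXL (336 to 1210) were high in every sample, CDH1 (E-cadherin) reached at most 1.77, ESR1 at most 0.869, and PGR had 0 counts. Of the other markers listed as low in this line, EPCAM was at 5.08 to 12 CPM and ERBB2 (HER2) at 52.7 to 68 CPM, so neither was absent. Markers of leukocytes, endothelium and liver were near 0 (PTPRC at most 0.264, CDH5 at most 0.25 and ALB at most 0.154 CPM) except PECAM1, which was at 2.38 to 4.04 CPM with DMSO or Ponatinib and at 20.1 to 40.1 CPM in the shRNA samples, and its part in the results was not tested. The 2 experiments differ in more than treatment (68 genes with at least 100 counts in each DMSO and Ponatinib sample had 0 counts in all shRNA samples, none of them a gene named here), so values were compared within an experiment only. Inside the deposited tables, the headings of shCtrl and of ABL1 shRNA are swapped relative to their labels, and the labels were followed here. In shCtrl and in the ABL1, ABL2 and double knockdowns, in this order, ABL1 was at 190.6, 72.59, 201.9 and 109.3 CPM and ABL2 at 237.1, 212, 93.21 and 147.7 CPM, so each target was lower in the samples labelled with its shRNA. Nothing in the labels says that replicates were separate cultures, so p-values measure the spread between these samples, which may be technical. In bulk RNA, fewer cells of a kind and less RNA per cell cannot be told apart.

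Levels were first ordered per length, as normalized CPM per kilobase (kb) of all annotated exons. With DMSO, CALR was highest (mean of 263 CPM per kb over 2 samples), followed by HSPA5 (85.5), HSP90B1 (54.9), PDIA4 (49.1), XBP1 (17.9), SDF2L1 (13), HERPUD1 (12.4), EDEM1 (10.9), DNAJB9 (7.7) and CRELD2 (3.45). SDF2L1 (12.1 and 14) and HERPUD1 (12.2 and 12.5) overlapped between samples and the other neighbours in this order did not. After Ponatinib, XBP1 stood at 40.1 and HERPUD1 at 31 CPM per kb, both well above SDF2L1 at 9.47, while CALR at 250 and HSPA5 at 121 kept the first places. The exon length pools all annotated transcripts, covers the whole gene for HSPA5 (6.53 kb) and is longest for HSP90B1 (13.09 kb), so the per-length levels of both are low estimates. By CPM alone HSP90B1 (mean of 719.2) was above HSPA5 (558.4), so the order of these 2 rests on the length used. The lower places rest on it as well. By mean CPM with DMSO, EDEM1 (73.36), HERPUD1 (62.64) and XBP1 (54.25) were all far above SDF2L1 (13.81), the lowest member.

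After 6 h of Ponatinib, 4 of the 10 genes rose, HERPUD1 and XBP1 by more than 2-fold, HSPA5 by 1.41-fold and HSP90B1 by 1.13-fold (edgeR quasi-likelihood test, Benjamini-Hochberg adjusted p under 0.05 over 16031 genes). Among all genes tested, 15% were called higher and 15.7% lower. None of the 10 fell by this test, with 2 lower at an unadjusted p under 0.05 (SDF2L1 and CRELD2) and 0 lower by DESeq2. The median log2 fold change of the 10 was -0.01, with a range from -0.42 to 1.32, against 0 for all genes. By the thresholds of the study (fold over 2 and unadjusted p under 0.05), HERPUD1 and XBP1 were higher and 0 were lower, against 3.19% and 2.29% of all genes. The response was thus uneven, since 2 genes more than doubled while 6 did not pass the test.

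HERPUD1 (ENSG00000051108.11), an ER membrane protein of the ERAD complex, was at 61.78 and 63.5 CPM with DMSO and at 155.6 and 158 CPM with Ponatinib. Both Ponatinib samples lay far above both DMSO samples, and the spread within each pair was small. The fold was 2.5 (log2 fold change 1.32, SE 0.07, edgeR adjusted p = 1.52e-09). XBP1 (ENSG00000100219.13), the transcription factor whose mRNA IRE1 splices, was at 50.98 and 57.52 CPM with DMSO and at 124.5 and 118.3 CPM with Ponatinib. Its groups did not overlap either, and the fold was 2.24 (log2 fold change 1.17, SE 0.08, edgeR adjusted p = 2.14e-08). Counts per gene do not separate spliced from unspliced XBP1 mRNA, so the activity of IRE1 was not measured. Both calls held in each fit tried, with log2 fold changes of 1.30 to 1.35 for HERPUD1 and 1.08 to 1.25 for XBP1 when any 1 sample was left out. A fit that leaves 1 sample in a group takes its spread from the other group alone, and the Ponatinib pair differed more (chi-square per degree of freedom 3.12) than the DMSO pair (1.44).

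HSPA5 (ENSG00000044574.7), the Hsp70 chaperone BiP that also holds the ER stress sensors inactive, was at 546 and 570.8 CPM with DMSO and at 784.8 and 790.7 CPM with Ponatinib. The Ponatinib samples were above both DMSO samples, and the rise was smaller than that of HERPUD1 or XBP1 (log2 fold change 0.50, SE 0.06, edgeR adjusted p = 1.03e-05). HSP90B1 (ENSG00000166598.9), the ER Hsp90 chaperone GRP94, was at 713.3 and 725 CPM with DMSO and at 827.2 and 791.4 CPM with Ponatinib. The groups did not overlap, but the change was the smallest of the 4 (log2 fold change 0.17, SE 0.06, edgeR adjusted p = 0.0333). That call was lost when either DMSO replicate was left out (edgeR adjusted p = 0.325 without replicate 1 and 0.219 without replicate 2), in a fit of all 8 samples (0.0625) and with the replicate number as a block (0.0556). Adding the counts of the near-identical pseudogenes HSPA5P1, HSP90B2P and HSP90B3P gave log2 fold changes of 0.49 for HSPA5 and 0.17 for HSP90B1 (edgeR adjusted p = 0.031 for the latter). Reads shared by a gene and its pseudogene may be in neither count, so their part in these calls was not tested.

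The other chaperones and folding factors did not pass the test. CALR (ENSG00000179218.10), the lectin chaperone calreticulin that binds glycoproteins and calcium, was at 720.3 and 752.8 CPM with DMSO and 722.7 and 678.2 CPM with Ponatinib (log2 fold change -0.07, SE 0.06, edgeR adjusted p = 0.394). PDIA4 (ENSG00000155660.7), a protein disulfide isomerase, was at 159.6 and 164.3 CPM with DMSO and 164.6 and 161.8 CPM with Ponatinib (log2 fold change 0.01, SE 0.06, edgeR adjusted p = 0.909). The groups overlapped in both genes. DNAJB9 (ENSG00000128590.4), the BiP cochaperone ERdj4 that restrains IRE1, was at 18.94 and 20.15 CPM with DMSO and 18.73 and 19.78 CPM with Ponatinib, which also overlapped (log2 fold change -0.02, SE 0.12, edgeR adjusted p = 0.903). For these 3 genes the fitted change lay within 2 standard errors of 0, and CALR passed only without Ponatinib replicate 1 (-0.11, edgeR adjusted p = 0.0457).

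SDF2L1, CRELD2 and EDEM1 had both Ponatinib samples below both DMSO samples without passing the test. SDF2L1 (ENSG00000128228.4), a lumenal partner of DNAJB11 and BiP, was at 12.83 and 14.79 CPM with DMSO and at 11.98 and 8.069 CPM with Ponatinib (log2 fold change -0.42, SE 0.17, edgeR adjusted p = 0.0793). CRELD2 (ENSG00000184164.11), an ER protein with disulfide isomerase activity, was at 17.35 and 18.33 CPM with DMSO and 13.69 and 15.49 CPM with Ponatinib (log2 fold change -0.30, SE 0.13, edgeR adjusted p = 0.0943). EDEM1 (ENSG00000134109.7), which directs misfolded glycoproteins to ERAD, was at 71.16 and 75.55 CPM with DMSO and 65.03 and 69.11 CPM with Ponatinib (log2 fold change -0.13, SE 0.07, edgeR adjusted p = 0.196). The SDF2L1 value rested much on Ponatinib replicate 2, the shallowest library. With that replicate as the sole Ponatinib sample SDF2L1 passed the test, at -0.76 on the log2 scale (edgeR adjusted p = 0.000671). CRELD2 passed without Ponatinib replicate 2 (-0.38, edgeR adjusted p = 0.0342). Over the 4 fits that left out 1 sample SDF2L1 ranged from -0.76 to -0.20.

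**Figure D2:**
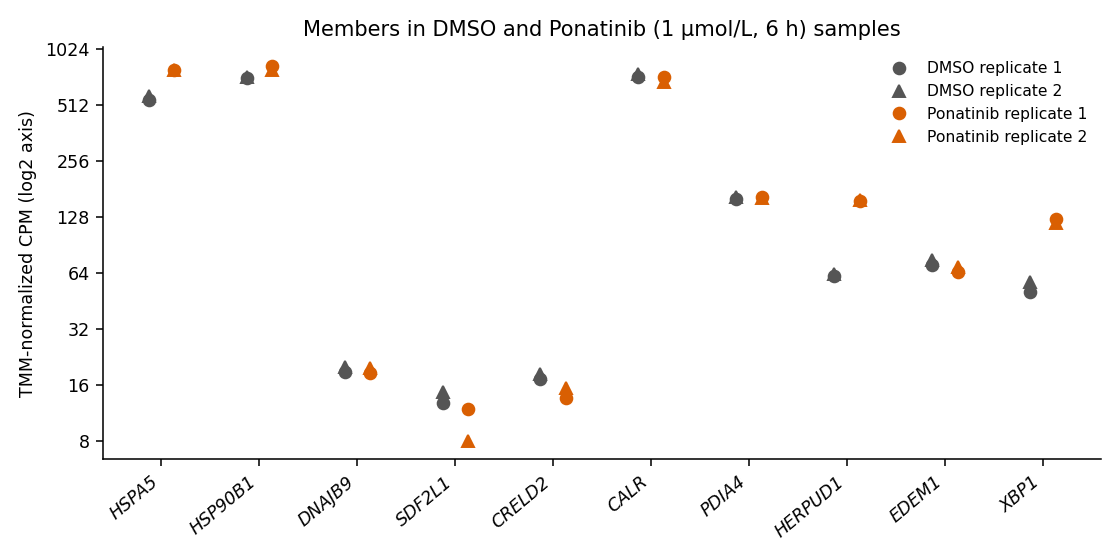
Normalized CPM of the 10 genes in each DMSO and Ponatinib sample (log2 axis; each point is 1 sample, grey for DMSO and orange for Ponatinib, 2 per group). HERPUD1, XBP1, HSPA5 and HSP90B1 lie higher with Ponatinib, CALR, PDIA4 and DNAJB9 overlap, and SDF2L1, CRELD2 and EDEM1 lie lower without passing the test.

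The other lists are read against the 15% of all genes called higher and the 15.7% called lower. Of 14 other ER chaperones and cochaperones, 0 rose and 3 fell (median log2 fold change -0.04), with 1 higher at an unadjusted p under 0.05 and 0 higher by DESeq2. Those that fell in the edgeR test were the cyclophilin PPIB (log2 fold change -0.40, adjusted p = 0.0117), the secreted survival factor MANF (-0.36, adjusted p = 0.0065) and the BiP cochaperone DNAJB11 (-0.29, adjusted p = 0.0039). HYOU1, the ER chaperone with variant II at 2 positions of its promoter, was at 213 and 221.9 CPM with DMSO and 213.5 and 218.4 CPM with Ponatinib. Of 15 disulfide and redox enzymes, 2 rose and 1 fell (median -0.03). These were TXNDC12 (0.44, edgeR adjusted p = 0.000282) and ERP29 (0.23, adjusted p = 0.0235), both thioredoxin-fold proteins of the lumen, and the sulfhydryl oxidase QSOX1 (-0.32, adjusted p = 0.000546). Over the 4 fits that left out 1 sample, PPIB ranged from -0.645 to -0.215, DNAJB11 from -0.326 to -0.246 and ERP29 from 0.135 to 0.31. The calls of PPIB, DNAJB11 and ERP29 did not hold in each of these fits, which take the spread from 1 pair alone. ERP29 did not pass with DESeq2 (adjusted p = 0.0562).

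Of 22 other ERAD genes, DERL3 had too few counts to be tested, and 3 of the 21 tested rose while 3 fell (median log2 fold change 0.04), near the 30.7% of all genes called. SEL1L, the adaptor of the HRD1 ubiquitin ligase, rose (0.41, edgeR adjusted p = 0.000642). EDEM3, a mannosidase related to EDEM1, fell (-0.53, edgeR adjusted p = 0.000495), as did SELENOS (-0.37, adjusted p = 0.00114) and the ubiquitin-conjugating enzyme UBE2G2 (-0.36, adjusted p = 0.000531). Of 18 genes of translocation and signal peptide processing, 1 rose and 6 fell (median -0.12), where 15% and 15.7% of all genes did. The translocon-associated subunit SSR3 fell most (-0.61, edgeR adjusted p = 3e-06), followed by the signal recognition particle receptor subunits SRPRB (-0.39) and SRPRA (-0.32), with SEC61B, a subunit of the translocation channel, between them (-0.33). The calls of SRPRB, SRPRA and SEC61B did not hold in each fit that left out 1 sample. Their log2 fold changes ranged from -0.506 to -0.244, -0.346 to -0.284 and -0.496 to -0.188. A change of over 2-fold was seen in 0 genes of the chaperone, disulfide, ERAD and translocation lists.

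The sensors were measured at the mRNA level only, which does not show their activity. Of the 6 sensor and protease genes, ATF6 (94.49 and 104.6 CPM with DMSO, 112.9 and 123.6 with Ponatinib) and ATF6B (80.1 and 85.07 with DMSO, 94.79 and 100.3 with Ponatinib) passed the test with log2 fold changes of 0.24 each (edgeR adjusted p = 0.0206 and 0.0165). Neither passed with DESeq2 (adjusted p = 0.0763 and 0.092) or without DMSO replicate 2 (edgeR adjusted p = 0.302 and 0.0731), and ATF6B did not pass without DMSO replicate 1 (0.255). ERN1, which encodes IRE1, was at 11.34 and 12.57 CPM with DMSO and 13.5 and 18.22 CPM with Ponatinib (log2 fold change 0.38, SE 0.16, edgeR adjusted p = 0.0818), and passed without Ponatinib replicate 1 (0.61, edgeR adjusted p = 0.000847). EIF2AK3, which encodes PERK, overlapped between groups (10.74 and 11.59 against 10.28 and 10.93 CPM), as did MBTPS1 (log2 fold change 0.08) and MBTPS2 (-0.10), the Golgi proteases that cleave ATF6.

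The PERK and ATF4 arm was different in size. All 13 of its genes passed the test, 12 higher and 1 lower, against 30.7% of all genes called in either direction. Their median log2 fold change was 1.66, and 9 of the 12 rose by more than 2-fold. Like the other lists, this one was chosen with earlier results of these data known, so its counts are a description only. TRIB3, a pseudokinase that restrains ATF4, was at 26.63 and 28.06 CPM with DMSO and 133.9 and 134.8 CPM with Ponatinib (log2 fold change 2.29, edgeR adjusted p = 1.58e-11). DDIT3, which encodes the transcription factor CHOP, was at 20.96 and 23.63 CPM with DMSO and 62.34 and 77.68 CPM with Ponatinib (1.66, edgeR adjusted p = 3.08e-08). The largest changes were those of the mTORC1 inhibitor DDIT4 (7.46-fold), the lipoprotein receptor VLDLR (5.38-fold) and SESN2, a leucine sensor (5.2-fold). ATF4 itself, which is regulated mostly in translation, went from 378.3 and 393.4 CPM to 429.9 and 478.7 CPM (0.24, edgeR adjusted p = 0.0118), a call that was lost without DMSO replicate 1 (0.201) or 2 (0.0757). The exception was PPP1R15A, which encodes the eIF2α phosphatase subunit GADD34 and fell from 276.1 and 280.1 CPM to 137.2 and 144.1 CPM (-0.98, edgeR adjusted p = 1.7e-08). ASNS, CHAC1 and ATF3, whose promoters hold the C/EBP-ATF element as that of HERPUD1 does, rose 3.77-fold, 4.53-fold and 2.09-fold, and were named for that match after their values were known. SRPRB, the other listed gene with these letters (248 bases before the start), fell. Of the 11 arm genes with a promoter sequence, 3 hold these letters in the searched window, and 12 of all 13 arm genes rose. Letters outside that window were not searched, and a part of the element in these changes was not tested.

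Folding genes of other compartments were measured as well. Of 11 cytosolic heat shock genes, 10 fell and 0 rose (median log2 fold change -0.27), against 15.7% and 15% of all genes, with 0 higher at an unadjusted p under 0.05 and 0 higher by DESeq2. HSPA8, the constitutive Hsp70, fell from 2123 and 2022 CPM to 1302 and 1266 CPM (-0.69, edgeR adjusted p = 2.84e-07). The cochaperones BAG3 (-0.55) and DNAJA1 (-0.47) and the nucleotide exchange factor HSPH1 (-0.44) fell as well. HSPA1A and HSPA1B, which share nearly all of their sequence, are uncertain as single genes. Of 9 mitochondrial chaperones and proteases, 2 rose and 4 fell (median -0.20, the same background), among them GRPEL1, the exchange factor of mitochondrial Hsp70 (-0.82), the protease subunit CLPP (-0.29), the cochaperone DNAJA3 (-0.24) and the protease LONP1 (0.24). Without DMSO replicate 1 or 2, fewer genes were called in both lists and among all genes, and CLPP, DNAJA3 and LONP1 were lost. Their log2 fold changes ranged from -0.444 to -0.171, -0.268 to -0.217 and 0.213 to 0.265 when any 1 sample was left out. CLPP and DNAJA3 did not pass with DESeq2 either (adjusted p = 0.0736 and 0.173).

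**Figure D3:**
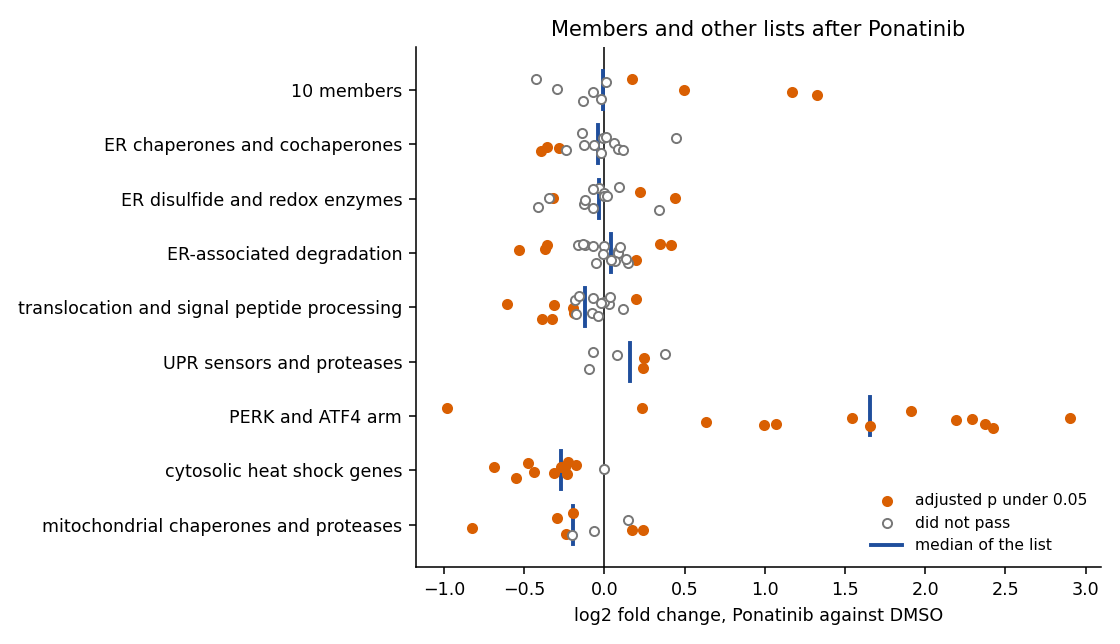
Log2 fold change of Ponatinib against DMSO for each gene of the 10 members and the 8 pathway lists (points, filled where the edgeR adjusted p was under 0.05; 2 samples per group), with a vertical bar at the median of each list. The PERK and ATF4 arm has a median of 1.66, the cytosolic heat shock genes have a median of -0.27, and the medians of the other lists lie between -0.20 and 0.16.

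The knockdowns have 1 sample a group and so no replicate spread of their own, and their ratios are given without a test. Most of the 10 genes were above shCtrl in every knockdown sample. With ABL1 shRNA 9 of 10 were above shCtrl, and 5 of them (HSPA5, HSP90B1, DNAJB9, XBP1 and PDIA4) were past 1.5-fold. With ABL2 shRNA 9 were above and 1 (PDIA4) was past 1.5-fold, and with both shRNAs 8 were above and 2 (DNAJB9 and PDIA4) were past it. In the other direction 0 members were past 1.5-fold in any of the 3. An edgeR fit of all 8 samples takes the spread from the DMSO and Ponatinib pairs alone, so its knockdown calls are not counted here. Of the 14723 genes with a mean of at least 1 CPM, 7190, 6977 and 7190 were above shCtrl with ABL1 shRNA, ABL2 shRNA and both. In the same order, 10.1%, 9.3% and 9.8% were past 1.5-fold higher and 10.3%, 7.04% and 8.18% past it lower. The members' median log2 ratios were 0.49, 0.41 and 0.38, against -0.01, -0.02 and -0.01 for all these genes. Since the 3 ratios share the shCtrl sample, 1 low shCtrl value would raise all of them, and they are not independent. The intervals given here are 95% exact binomial intervals of the ratio and cover counting error only.

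PDIA4 was the member past 1.5-fold in every knockdown. It was at 141.5 CPM in shCtrl, and the ABL1, ABL2 and double knockdowns had 234.4, 249.1 and 224 CPM, with ratios of 1.66 (1.56 to 1.76), 1.76 (1.66 to 1.87) and 1.58 (1.49 to 1.68). DNAJB9 was at 18.98 CPM in shCtrl, and the ABL1, ABL2 and double knockdowns had 43.14, 26.85 and 30.85 CPM. Its ratio of 2.27 (1.94 to 2.67) with ABL1 shRNA was the largest of any member, and those with ABL2 shRNA and both were 1.41 (1.19 to 1.69) and 1.63 (1.37 to 1.93). The interval with ABL1 shRNA did not overlap that with ABL2 shRNA, so those 2 libraries differed beyond counting error, while the value with both shRNAs was not above that with ABL1 shRNA alone. In the sample with both shRNAs each target was lowered less than in its single knockdown (ABL1 ratio 0.57 against 0.38, ABL2 ratio 0.62 against 0.39). An added effect of the second shRNA was therefore not tested.

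HSPA5 was at 633.3 CPM in shCtrl, and the ABL1, ABL2 and double knockdowns had 979.9, 868.9 and 891.9 CPM. HSP90B1 was at 793.5, 1254, 1174 and 1135 CPM in the same order. The ratios of these abundant chaperones were close to each other with ABL1 shRNA (1.55 and 1.58) and with both (1.41 and 1.43). With ABL2 shRNA they were 1.37 (1.33 to 1.41) and 1.48 (1.44 to 1.52), and these intervals did not overlap. CALR was at 632 CPM in shCtrl and at 788.4, 814 and 785.3 CPM in the knockdowns, a ratio of 1.24 to 1.29. XBP1 was at 67.27 CPM in shCtrl and at 102.6, 85.53 and 91.66 CPM, with ratios of 1.52 (1.39 to 1.67), 1.27 (1.16 to 1.4) and 1.36 (1.24 to 1.5). HERPUD1, the member with the largest Ponatinib change, had smaller ratios of 1.3, 1.15 and 1.17 (55.53 CPM in shCtrl and 72.2, 63.83 and 64.83 in the knockdowns).

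The remaining 3 members showed no common direction. EDEM1 was at 129.1 CPM in shCtrl, and the ABL1, ABL2 and double knockdowns had 145, 179.1 and 127.2 CPM, and its ratio with both shRNAs, 0.99 (0.92 to 1.06), included 1. SDF2L1 was at 8.652, 7.612, 10.45 and 6.994 CPM, and all 3 of its intervals included 1 (0.66 to 1.18, 0.92 to 1.59 and 0.6 to 1.09). CRELD2 was at 16.51, 20.15, 13.78 and 18.27 CPM, where the ratio with ABL1 shRNA was 1.22 (1.01 to 1.48) and the other intervals included 1. At these low counts, a difference of SDF2L1 or CRELD2 of the size seen was mostly not detectable.

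**Figure D4:**
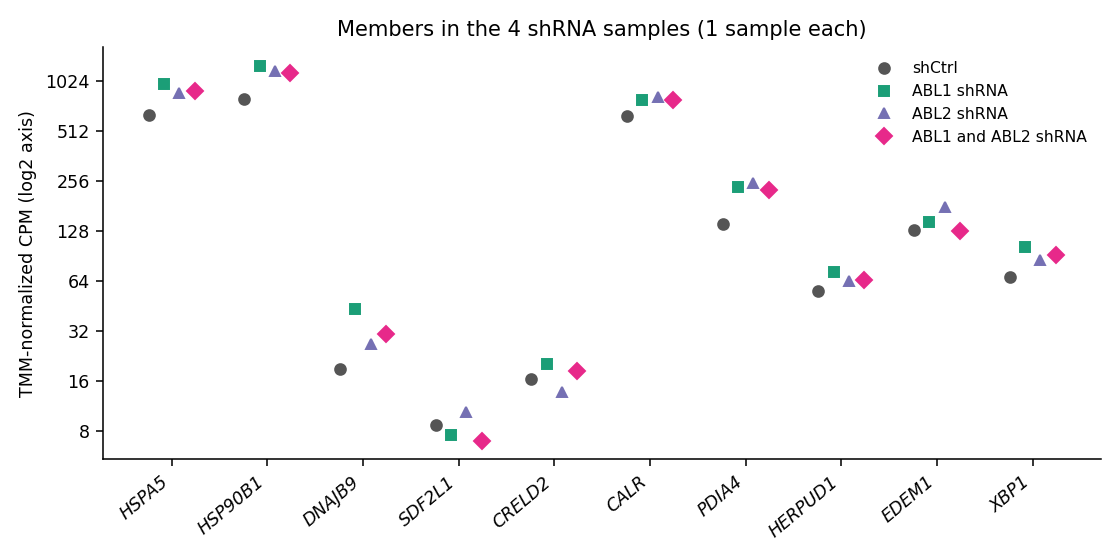
Normalized CPM of the 10 genes in shCtrl and the 3 knockdown samples (log2 axis; 1 point per sample, no replicates). HSPA5, HSP90B1, DNAJB9, XBP1, PDIA4, CALR and HERPUD1 are lowest in shCtrl, while SDF2L1, CRELD2 and EDEM1 have at least 1 knockdown sample below it.

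Other genes of the ER lumen were compared in the same way. Of 14 other ER chaperones and cochaperones, 4, 3 and 3 were past 1.5-fold higher with ABL1 shRNA, ABL2 shRNA and both, and 1, 0 and 0 past it lower, where 10.1%, 9.3% and 9.8% of all genes were higher. FKBP14, a prolyl isomerase that folds collagens, was at 17.83 CPM in shCtrl and 44.29, 32.63 and 40.56 CPM in the knockdowns (ratios 2.48, 1.83 and 2.27). MANF was at 41.58 CPM in shCtrl and 78.89, 64.46 and 71.01 CPM (ratios 1.9, 1.55 and 1.71). HYOU1 was at 153.1 CPM in shCtrl and 219, 249.1 and 231.1 CPM (ratios 1.43, 1.63 and 1.51). CANX, the membrane-bound lectin chaperone that works beside CALR, was not higher (1130 CPM in shCtrl and 1047, 1090 and 971.3 CPM in the knockdowns), and was singled out after its values were seen. The list's median log2 ratios were 0.21, 0.08 and 0.16, below those of the 10 members.

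In the other lists few genes were past 1.5-fold, and the shares of all genes are those given above. Of 15 disulfide and redox enzymes, 0, 2 and 0 were past 1.5-fold higher and 1, 0 and 1 lower, the lower one being TXNDC12, at 58.36 CPM in shCtrl and 17.53, 47.75 and 30.11 CPM in the knockdowns. Of 21 ERAD genes, 1, 0 and 0 were higher and 1, 1 and 1 lower, UBE2J1 among them with both shRNAs (108.8 CPM in shCtrl and 66.81 CPM). Of 18 translocation genes, 1, 0 and 0 were higher and 1, 1 and 1 lower, SSR3 being at 158.2 CPM in shCtrl and 99.64 CPM with both shRNAs. All 6 sensor and protease genes and all 9 mitochondrial genes stayed within 1.5-fold in the 3 knockdowns, and 1 of 11 cytosolic heat shock genes was lower, with ABL1 shRNA.

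In the PERK and ATF4 arm, 3, 2 and 1 of the 13 genes were past 1.5-fold higher and 0 were lower, with median log2 ratios of 0.36, 0.08 and 0.09. Those past it were SLC7A11, CHAC1 and ASNS with ABL1 shRNA (ratios 2.01, 1.81 and 1.51) and VLDLR and CHAC1 with ABL2 shRNA (1.93 and 1.75). TRIB3 was at 28.08 CPM in shCtrl and 32.83, 34.53 and 29.95 CPM in the knockdowns, DDIT3 at 20.48 and 26.45, 20.27 and 21.89 CPM, and ATF4 at 364.1 and 490.2, 336.7 and 428.7 CPM. CHAC1, which degrades glutathione, was the gene past 1.5-fold with both shRNAs, at 3.355 CPM in shCtrl and 6.089 CPM, a ratio of 1.81 (1.21 to 2.76) at low counts.

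Side by side, the largest values in the 2 experiments belonged to different members. With Ponatinib the log2 fold changes were 1.32 for HERPUD1, 1.17 for XBP1, 0.50 for HSPA5, 0.17 for HSP90B1, 0.01 for PDIA4 and -0.02 for DNAJB9. With both shRNAs the log2 ratios were 0.22 for HERPUD1, 0.45 for XBP1, 0.49 for HSPA5, 0.52 for HSP90B1, 0.66 for PDIA4 and 0.70 for DNAJB9. The difference between the experiments was not tested, and treatment (6 h of inhibitor against stable knockdown) and experiment cannot be told apart. ABL2 mRNA itself went from 335.3 and 306 CPM with DMSO to 147.7 and 169.2 CPM with Ponatinib (log2 fold change -1.02, edgeR adjusted p = 8.56e-08). ABL1 went from 165.6 and 162.8 CPM to 182.6 and 193.7 CPM (0.19, edgeR adjusted p = 0.0287).

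**Figure D5:**
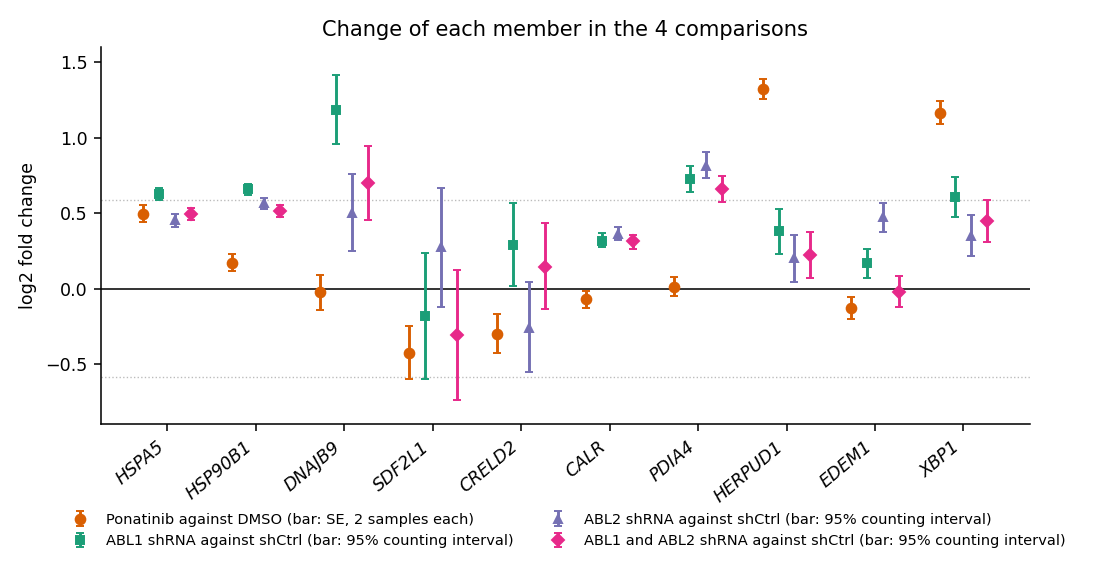
Log2 fold change of each member with Ponatinib against DMSO (circles, bars are SE, 2 samples per group) and log2 ratio of each knockdown to shCtrl (bars are 95% counting intervals, 1 sample each), with dotted lines at 1.5-fold. HERPUD1 and XBP1 are highest with Ponatinib, DNAJB9 is highest with ABL1 shRNA and with the combination, PDIA4 is highest with ABL2 shRNA, and HSPA5 lies between 0.46 and 0.63 in all 4.

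Across the 8 samples, with log2 CPM centred within each experiment, HSP90B1 and HSPA5 were most like the mean of the other members (Pearson r = 0.95 and 0.93), followed by PDIA4 (0.75), DNAJB9 (0.66), XBP1 (0.62), CALR (0.61), HERPUD1 (0.43) and EDEM1 (0.14). CRELD2 (-0.24) and SDF2L1 (-0.46) went the other way. These correlations describe 8 samples that share controls and library depth. Of 8986 other genes that had 100 or more counts in all samples, those most like the mean of the 10 members were the glycosyltransferase gene B4GAT1 (r = 0.985), ENSG00000250746 (0.981), the RNA helicase gene DDX39B (0.978), MAGED1 (0.976) and EFCAB11 (0.973). A high r does not mean a large change. DDX39B had a log2 fold change of 0.08 with Ponatinib (edgeR adjusted p = 0.358) and log2 ratios of 0.18, 0.14 and 0.14 in the knockdowns. EFCAB11 had 0.20 (edgeR adjusted p = 0.283) and 0.63, 0.51 and 0.42, and ENSG00000250746 had 0.48 (edgeR adjusted p = 0.000744) and 0.84, 0.55 and 0.60. B4GAT1 had a log2 fold change of 0.29 with Ponatinib (edgeR adjusted p = 0.051) and log2 ratios of 0.56, 0.44 and 0.44 in the knockdowns, and MAGED1 had 0.30 (edgeR adjusted p = 0.00551, and 0.127 without DMSO replicate 1) and 0.64, 0.47 and 0.55.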

How the data were processed

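RNA of 8 LM2 samples was prepared with a NEBNext Ultra kit and sequenced on an Illumina HiSeq instrument. Per the labels and the submitters' processing notes, reads were checked with FastQC, mapped to hg38 with TopHat and counted per gene with HTSeq 0.6.0. The authors deposited these counts without normalization, 1 file per sample. The annotation and the strand setting of the counting are not given in the sources used here, and UQCC6 and ALG12 lie antisense to HSP90B1 and CRELD2 (50 to 123 and 77 to 134 counts). Summary rows of the shRNA files (15.66 to 16.02% of all reads) were left out.

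Ponatinib was tested against DMSO in its 4 samples by the quasi-likelihood test of edgeR 4.0.16 (R 4.3.3; TMM, filterByExpr, prior count 0.125), with Benjamini-Hochberg adjustment over all genes, after tests on simulated data. Knockdowns are ratios of TMM-normalized CPM to shCtrl, called past 1.5-fold, with 95% exact binomial intervals. The alternatives were DESeq2 1.42.0, other scalings and filters, a replicate block, a fit of all 8 samples and leaving out each sample. The members and the lists were chosen with earlier results of these data known. Genes named were the members, the sensors, of each other list the 4 largest called Ponatinib changes and the 2 largest double-knockdown ratios past 1.5-fold, ATF4, DDIT3, TRIB3, ABL1, ABL2 and the 5 genes most like the members. HYOU1, CANX, ERO1B, ASNS and ATF3 were added for a promoter match. SLC7A11 was added as past 1.5-fold with ABL1 shRNA, after its values were seen. Promoter sequences are RefSeq's, matched for 10 of 10 members. Gene lengths are GENCODE's on GRCh38.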

Additional observations from a re-analysis of the deposited data

How the results depend on the processing

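Under the study's thresholds (fold over 2, unadjusted p under 0.05) 2 members were higher instead of 4, and 0 genes were called in the ER chaperone, disulfide, ERAD, sensor, translocation, cytosolic and mitochondrial lists, against 3, 3, 6, 2, 7, 10 and 6. Among all 16031 genes, these thresholds called 878, against 4917 in the main fit. DESeq2 called 0 sensors and 2 mitochondrial genes, with 1328 higher and 1481 lower among all genes, against 2406 and 2511. Members called lower numbered 1 without the filter on low counts (SDF2L1, edgeR adjusted p = 0.0376), a fit that called 2711 of 30424 genes lower. When each sample was left out in turn, which leaves the spread to the intact pair, the counts ranged from 0 to 2 for members lower, 3 to 4 for members higher, 1 to 7 for ER chaperones, 2 to 5 for disulfide enzymes, 4 to 8 for ERAD, 0 to 4 for sensors, 2 to 10 for translocation, 5 to 10 for cytosolic and 1 to 7 for mitochondrial genes, and 12 to 13 for the PERK and ATF4 arm. MBTPS1 also passed without Ponatinib replicate 1 (0.16, edgeR adjusted p = 0.0343). Changes near 0 turned sign as samples were left out, with ranges of -0.07 to 0.03 for DNAJB9, -0.01 to 0.034 for PDIA4 and -0.259 to 0.093 for MBTPS2, and PDIA4 was at -0.005 with all 8 samples in one fit. Samples with the same number did not deviate together (r = 0.016 over 10278 genes), and a replicate block gave 2423 higher and 2561 lower genes against 2406 and 2511, with HSP90B1 at 0.17 (edgeR adjusted p = 0.0556) and the other members' calls as before. With a fold of 2, 1, 0 and 0 members were called with ABL1 shRNA, ABL2 shRNA and both. With CPM on total counts 2 were called with ABL2 shRNA. An edgeR fit of all 8 samples assumes that the single knockdown samples vary like the DMSO and Ponatinib pairs, so its knockdown calls are not counted here. The pseudogene counts were added as an alternative after seeing the data and changed no call of HSPA5 or HSP90B1. The cause of these shifts was not tested, other than by construction for the higher fold. Knockdown values have no replicate, so the spread of their biology is unknown, and depth limits SDF2L1 and CRELD2 most.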
